A study of Mus musculus with 12 samples.

Results

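Of the 20 mouse carboxylesterase genes looked up, 6 (Ces1c, Ces1d, Ces1e, Ces1f, Ces1g and Ces2c) were followed across 12 left-kidney RNA-seq libraries as a set of genes labelled as lost during ureteral obstruction. The 6 genes were chosen by name, out of 55471 genes in the deposited table, with their fall between day 0 and day 5 of obstruction already known. All 6 passed the filter on low values, Ces1c with no more than 15 reads in any library. Their obstruction values are therefore a description and carry no test, whereas the rule uses neither genotype nor the sex-chromosome pattern of the libraries.

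Libraries came from C57/BL6 mice in which a microvascular clamp closed the left ureter (unilateral ureteral obstruction, UUO), at 8 to 12 weeks of age according to a protocol that names Sprr2f-KO mice. Sprr2f encodes a small proline-rich protein of cornified and other stressed epithelia. The groups were Sprr2f KO at day 5 (n = 3), Sprr2f KO at day 0 (n = 4), WT at day 5 (n = 3) and WT at day 0 (n = 2), where day 0 is the start of obstruction. The labels give no operation for the day 0 kidneys and say of replicates only that they are separate samples, so p-values reflect only how far these samples spread. RNA came from part of each kidney, frozen whole. In such bulk tissue, fewer cells of a type and less RNA per cell cannot be told apart.

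The libraries held between 16567256 and 19398882 reads on genes. Sprr2f itself stood at 0 to 3.53 scaled CPM (deposited CPM divided by the library's TMM factor) in KO kidneys at day 5, 0 to 0.309 in KO kidneys at day 0, 22.5 to 49.9 in WT kidneys at day 5 and 0 to 0.121 in WT kidneys at day 0, so the gene checks the genotype labels at day 5 only. The series title speaks of female mice, yet 7 libraries carried Y-linked transcripts (112 to 170 CPM summed over Ddx3y, Uty, Kdm5d and Eif2s3y) and 5 carried Xist (481 to 893 CPM) with 0.281 to 0.979 CPM of the Y-linked genes. The Y-linked libraries were all 4 KO libraries at day 0, replicate 2 of the 3 KO libraries at day 5, replicate 3 of the 3 WT libraries at day 5 and replicate 1 of the 2 WT libraries at day 0. The Xist libraries were KO replicates 1 and 3 at day 5, WT replicates 1 and 2 at day 5 and WT replicate 2 at day 0. No KO library at day 0 carried Xist, so genotype at day 0 and this pattern are partly mixed.

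Carboxylesterases are serine hydrolases of the endoplasmic reticulum that cleave carboxylic esters in drugs, in acylglycerols and in cholesteryl esters. Mice have many more of them than humans, as tandem copies, and liver, intestine and kidney are their main sites. Ces1d is triacylglycerol hydrolase, which in liver mobilises stored triacylglycerol for very low density lipoprotein. Ces1f is a close relative with similar substrates, and Ces1e, also called egasyn, holds beta-glucuronidase in the endoplasmic reticulum. Ces1g hydrolyses lipid esters and restrains hepatic lipid synthesis, Ces1c is the secreted esterase of mouse plasma, and Ces2c is a xenobiotic and acylglycerol hydrolase of the second subfamily. Several mouse esterases have long been known to differ between male and female kidneys.

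In the GENCODE M21 annotation of GRCm38, all 6 genes lie on chromosome 8. The 5 Ces1 members sit within a row of 8 Ces1 genes on the minus strand that spans 359.5 kb (chr8:93020214-93379725), in the order Ces1c, Ces1d, Ces1e, Ces1f and Ces1g. Ces2c lies on the plus strand (chr8:104847068-104854483) within a row of 8 Ces2 genes that spans 287.2 kb. Among the longest annotated transcripts, the 5 Ces1 members were 74.5% to 79.2% identical to each other over the aligned bases and 64.1% to 66.6% identical to Ces2c. Reads of 50 bases still tell most of them apart. Of the distinct 50-base words of each gene's exons, 13% of those of Ces1c, 1.08% of Ces1d, 2.97% of Ces1e, 0.903% of Ces1f and 1.67% of Ces1g occur in another gene. For Ces2c the share was 36.1%, with 734 of its 811 shared words also in the pseudogene Ces2d-ps, so its count is the least certain; Ces2d-ps itself stood at no more than 0.456 scaled CPM in any library. Ces1d also overlaps the predicted gene Gm45909.

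Promoter windows are shown for the 3 well-detected members that had an entry in the RefSeq table (GRCm38.p6), from 250 bases before to 50 bases after the start, 5′ to 3′ on the gene's own strand. They set the starts of Ces1g and Ces2c beside that of Ces1e. Between the 1 Y-linked and the 1 Xist WT library at day 0, Ces1g and Ces2c differ and Ces1e is nearly equal. This grouping does not hold at day 5, where the Y-linked minus Xist log2 difference was 0.19 for Ces1g, 1.05 for Ces2c and -0.74 for Ces1e. A link between motifs and the pattern was not tested. Capitals mark every match to the motifs named after them.
Ces1e (chr8:93229570-93229869, minus strand): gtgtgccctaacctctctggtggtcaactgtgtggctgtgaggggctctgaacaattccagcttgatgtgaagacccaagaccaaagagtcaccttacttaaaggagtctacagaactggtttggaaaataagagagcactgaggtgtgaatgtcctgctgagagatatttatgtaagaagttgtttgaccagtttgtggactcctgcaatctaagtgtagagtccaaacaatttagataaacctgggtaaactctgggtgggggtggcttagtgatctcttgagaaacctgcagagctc
Ces1g (chr8:93337160-93337459, minus strand): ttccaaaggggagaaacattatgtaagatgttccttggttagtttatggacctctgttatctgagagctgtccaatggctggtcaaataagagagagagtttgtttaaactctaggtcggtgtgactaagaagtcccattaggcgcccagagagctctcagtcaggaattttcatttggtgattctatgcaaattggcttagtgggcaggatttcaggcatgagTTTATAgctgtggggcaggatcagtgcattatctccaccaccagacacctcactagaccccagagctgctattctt
Ces2c (chr8:104846818-104847117, plus strand): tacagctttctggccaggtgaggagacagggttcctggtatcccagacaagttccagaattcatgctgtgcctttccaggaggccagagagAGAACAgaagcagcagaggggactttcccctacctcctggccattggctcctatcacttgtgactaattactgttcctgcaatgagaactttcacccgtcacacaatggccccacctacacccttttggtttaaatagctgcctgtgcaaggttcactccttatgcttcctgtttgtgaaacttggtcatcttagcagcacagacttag
The motifs searched on both strands included the TATA box TATAAA, the nuclear receptor core AGGTCA, the androgen and glucocorticoid receptor core TGTTCT and the STAT site TTCNNNGAA. Ces1g holds the TATA box letters, read on the other strand, at position -26 from its start, which 13.6% of 32851 promoter windows hold somewhere. Ces2c holds TGTTCT, read on the other strand, at position -159, and 19.0% of the windows hold that motif. No match to these motifs was found in the window of Ces1e. AGGTCA is held by 16.3% of windows and TTCNNNGAA by 8.30%, and none of the 3 windows shown holds either of these. The aligned parts of the Ces1e and Ces1g windows (146 bases) were 66.4% identical.

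Before obstruction these genes ranged from very high to nearly silent. Per kilobase of exon, mean scaled CPM in KO kidneys at day 0 ran from Ces1f (274) through Ces2c (157), Ces1d (144), Ces1e (53.2) and Ces1g (20.7) to Ces1c (0.143). In that order only Ces2c and Ces1d overlapped as neighbours over the 4 libraries. In WT kidneys at day 0 the order was Ces1d (146), Ces1f (123), Ces2c (77.5), Ces1e (42.4), Ces1g (19.8) and Ces1c (0.378), and each of the first 3 overlapped the next over the 2 libraries. At day 5 the order was the same in both genotypes: Ces2c first (27.2 per kilobase in KO kidneys, 21.3 in WT kidneys), then Ces1f (25.0 and 18.9), Ces1d (23.0 and 15.5), Ces1e (4.65 and 2.74), Ces1g (0.327 and 0.201) and Ces1c (0.169 and 0.0872). Neighbours at day 5 overlapped within each genotype except Ces1d with Ces1e and Ces1e with Ces1g.

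The triacylglycerol hydrolase Ces1d was lower at day 5 in every library. It had 60.4, 35.1 and 68.1 scaled CPM in KO kidneys at day 5, against 321, 369, 355 and 321 in KO kidneys at day 0. In WT kidneys it had 40.9, 44.9 and 24.5 at day 5, against 253 and 441 at day 0. The groups of each genotype did not overlap, and the lowest library of each day 5 group was the Y-linked one. Day 5 means were 16.0% of day 0 in KO kidneys and 10.6% in WT kidneys, a log2 difference of -2.69 ± 0.25 (SE) in KO kidneys and -3.21 ± 0.30 in WT kidneys.

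Egasyn, Ces1e, behaved much like Ces1d at a lower level. Ces1e had 12.2, 5.52 and 12.8 scaled CPM in KO kidneys at day 5, against 104, 123, 125 and 114 at day 0. In WT kidneys it had 5.91, 7.16 and 4.91 at day 5, against 92.4 and 93.0 at day 0. All day 5 libraries lay far below all day 0 libraries, and the 2 WT libraries at day 0, 1 of each pattern, were nearly equal. The day 5 mean was 8.75% of the day 0 mean in KO kidneys (log2 -3.53 ± 0.23) and 6.46% in WT kidneys (log2 -3.86 ± 0.27).

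Ces1f, the most abundant member in KO kidneys at day 0, split the WT libraries. It had 64.8, 134 and 47.6 scaled CPM in KO kidneys at day 5, against 854, 1015, 907 and 829 at day 0, with no overlap. WT kidneys had 30.3, 43.6 and 113 at day 5, against 720 and 86.2 at day 0. The highest WT library at day 5, a Y-linked one, thus exceeded the Xist library at day 0, and in both genotypes the Y-linked library was the highest at day 5. The log2 difference between days was -3.58 ± 0.60 in KO kidneys and -2.22 ± 0.72 in WT kidneys.

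Ces1g came closest to vanishing. It had 1.15, 0.641 and 0.557 scaled CPM in KO kidneys at day 5 (12 to 26 reads), against 52.7, 33.6, 44.4 and 66.7 at day 0 (443 to 1121 reads). In WT kidneys it had 0.189, 0.504 and 0.745 at day 5 (4 to 17 reads), against 91.7 and 3.08 at day 0 (1515 and 51 reads). The day 5 libraries lay below all day 0 libraries, although the Xist library at day 0 was already low. Means at day 5 were 1.58% of day 0 in KO kidneys (log2 -5.27 ± 0.76) and 1.01% in WT kidneys (log2 -4.26 ± 0.91). On the fitted scale, which adds 0.5 CPM and so understates the fall of a gene this low, 4 of 18093 tested genes fell further in KO kidneys and 1 in WT kidneys.

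Ces2c followed Ces1f. It had 58.0, 88.5 and 40.9 scaled CPM in KO kidneys at day 5, against 297, 491, 398 and 253 at day 0. In WT kidneys it had 31.3, 35.5 and 79.7 at day 5, against 282 and 74.6 at day 0. The KO groups did not overlap, whereas in WT kidneys the Y-linked library at day 5 lay just above the Xist library at day 0. The day 5 mean was 17.4% of day 0 in KO kidneys (log2 -2.54 ± 0.44) and 27.4% in WT kidneys (log2 -1.69 ± 0.52).

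The label "lost during obstruction" did not hold for Ces1c in KO kidneys. The gene was close to the limit of detection everywhere, with 13, 0 and 13 reads in KO kidneys at day 5, against 3, 6, 7 and 4 reads at day 0, and 11, 0 and 2 reads in WT kidneys at day 5, against 15 and 14 reads at day 0. In scaled CPM these were 0.573, 0 and 0.604 in KO kidneys at day 5, against 0.185, 0.456, 0.454 and 0.238 at day 0. WT kidneys had 0.520, 0 and 0.0876 at day 5, against 0.908 and 0.846 at day 0. The KO groups overlapped and their log2 difference was 0.03 ± 0.31, while the WT groups did not overlap (log2 -1.04 ± 0.37). Albumin (Alb) was 1 of the 3 genes most like it over the libraries: the 2 libraries with no Ces1c read were those with the least Alb, 0.246 scaled CPM in the KO library and 1.11 in the WT library, against 3.71 to 30.5 in the other 10. The 10 hepatocyte markers as a list (Alb, Ttr, Fga, Fgb, Fgg, Apoa2, Ahsg, Serpina1a, Cps1 and F2), all detected in each group, summed to 202 to 244 scaled CPM in KO kidneys at day 5, 231 to 354 in KO kidneys at day 0, 181 to 392 in WT kidneys at day 5 and 178 to 188 in WT kidneys at day 0. Of the KO libraries at day 5, the 1 with no Ces1c read had the highest sum (244, against 202 and 216). Of the WT libraries at day 5, the 1 with no Ces1c read had the lowest sum (181, against 392 and 325). Single genes of the list moved both ways at day 5 (limma adjusted p under 0.05): 3 rose and 4 fell in KO kidneys, and 3 rose and 2 fell in WT kidneys. The fibrinogen genes Fgb and Fgg rose by 2.93 and 2.65 on the log2 scale in KO kidneys and by 2.76 and 3.30 in WT kidneys. Ttr fell, with differences of -3.81 in KO kidneys and -3.19 in WT kidneys. Whether hepatocyte RNA has a part in the Ces1c reads was not tested.

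**Figure D1:**
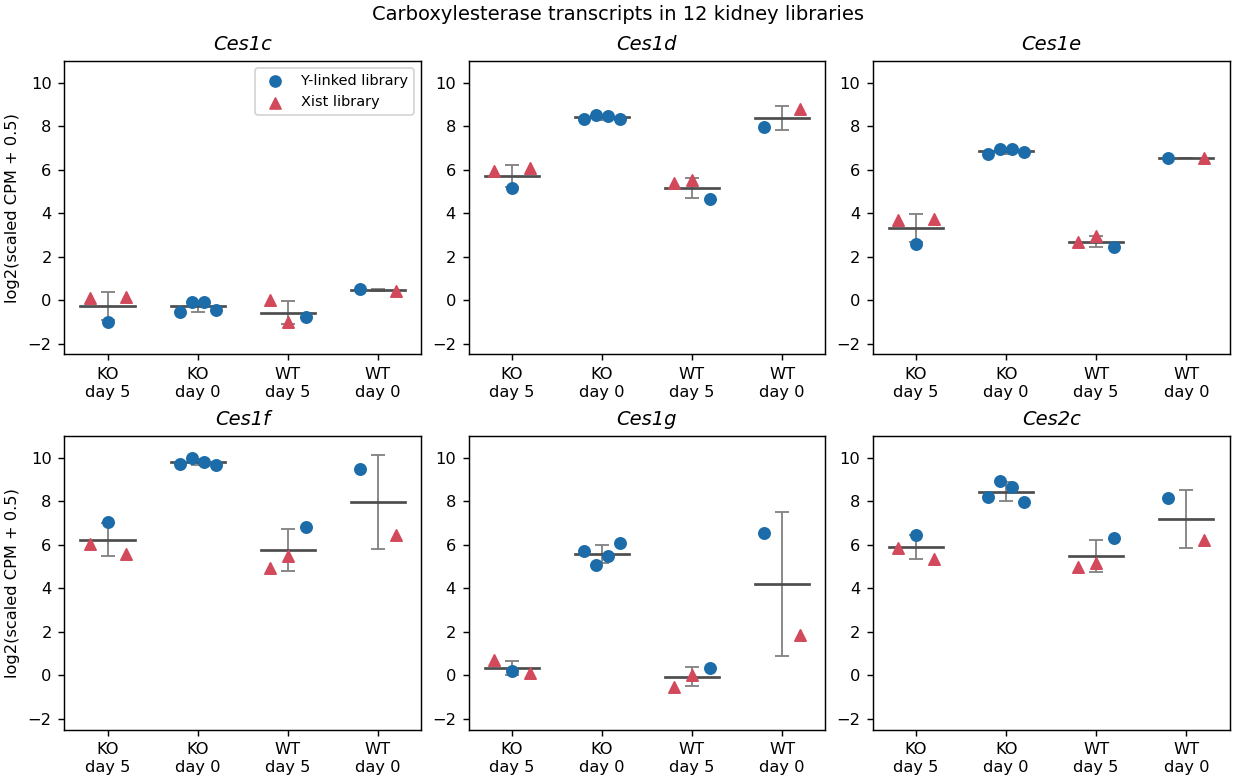
Level of each carboxylesterase transcript, as log2(scaled CPM + 0.5), in 12 kidney libraries grouped by genotype and day; circles are libraries with Y-linked transcripts, triangles libraries with Xist, bars the group mean ± SD (n = 3, 4, 3 and 2 libraries from left to right). Ces1d to Ces2c lie lower at day 5 apart from the overlapping WT libraries of Ces1f and Ces2c, the WT libraries at day 0 lie far apart for Ces1f, Ces1g and Ces2c, and Ces1c stays near 0 reads throughout.

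Together the 6 genes summed to 197, 264 and 171 scaled CPM in KO kidneys at day 5, against 1628, 2032, 1830 and 1583 at day 0. WT kidneys had 109, 132 and 223 at day 5, against 1440 and 699 at day 0. The make-up of that sum followed the sex-chromosome pattern. At day 5 Ces1f made up 50.8% of the sum in the Y-linked KO library, 50.6% in the Y-linked WT library, and 27.8% to 33.1% in the 4 Xist libraries. At day 0 it made up 49.6% to 52.4% in the KO libraries and 50.0% in the Y-linked WT library, but 12.3% in the Xist WT library, where Ces1d made up 63.1%.

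**Figure D2:**
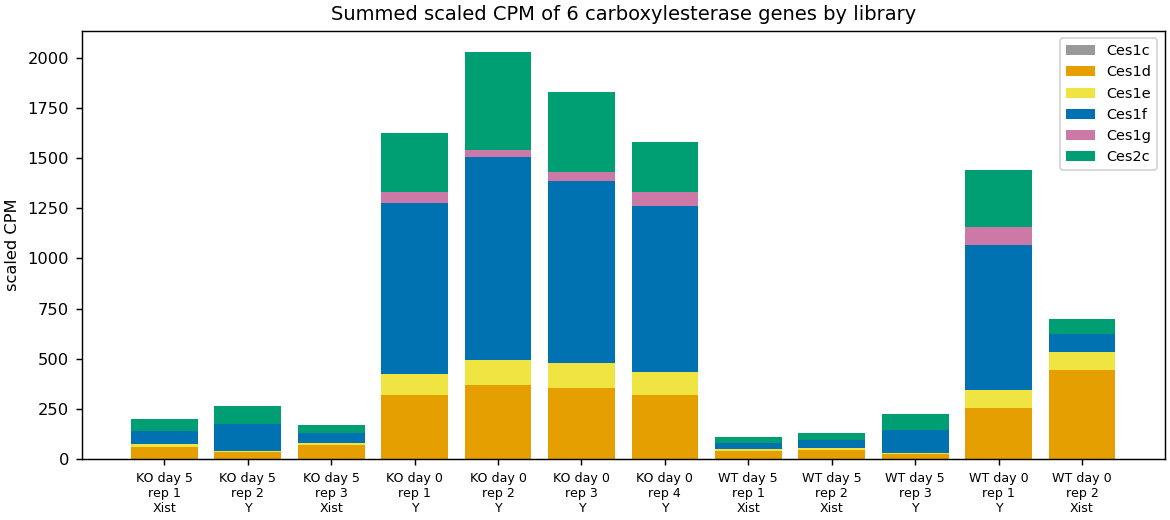
Stacked bars show the summed scaled CPM of the 6 genes in each library, with colour for the gene and the sex-chromosome pattern under each bar. Sums were 109 to 264 in the 6 libraries at day 5 and 699 to 2032 in the 6 at day 0; the lowest day 0 bar is the Xist library of WT kidneys, in which Ces1f is low.

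Of all tested genes, 54.8% were called at day 5 in KO kidneys, 25.4% lower and 29.4% higher (4589 and 5328 genes; limma, Benjamini-Hochberg adjusted p under 0.05), and 47.1% in WT kidneys, 22.6% lower and 24.5% higher (4087 and 4440 genes). Among those called lower were 5 of the 6 genes in KO kidneys and 6 of 6 in WT kidneys, counts that the choice of the genes fixes. Scaling by library size alone moved the median gene by 0.38 in KO kidneys and 0.37 in WT kidneys on the log2 scale and split the calls into 2179 lower and 10114 higher in KO kidneys and 2001 lower and 8560 higher in WT kidneys. Under it Ces1d still differed by -2.24 in KO kidneys and -2.79 in WT kidneys.

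The differences between days were also taken within libraries of like pattern. Among Y-linked libraries (1 at day 5 against 4 at day 0 in KO kidneys, 1 against 1 in WT kidneys) Ces1f differed by -2.73 in KO kidneys and -2.68 in WT kidneys. In the same libraries Ces1g differed by -5.35 in KO kidneys and -6.17 in WT kidneys, and Ces2c by -1.96 in KO kidneys and -1.82 in WT kidneys. Ces1d differed by -3.25 in KO kidneys and -3.34 in WT kidneys, and Ces1e by -4.26 in KO kidneys and -4.10 in WT kidneys. Ces1c, at these few reads, differed by -0.68 in KO kidneys and -1.21 in WT kidneys. For all 6 genes the KO and WT values lay nearer each other in these libraries than over all libraries, with 1 WT library at each day. Among Xist libraries, which allow the comparison in WT kidneys only (2 at day 5 against 1 at day 0), Ces1f differed by -1.21, Ces1g by -2.16 and Ces2c by -1.13, while Ces1d differed by -3.33 and Ces1e by -3.73. The fall of Ces1d and Ces1e was of like size in both patterns, and that of Ces1f and Ces1g was smaller in the Xist libraries, where the day 0 level was already low.

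**Figure D3:**
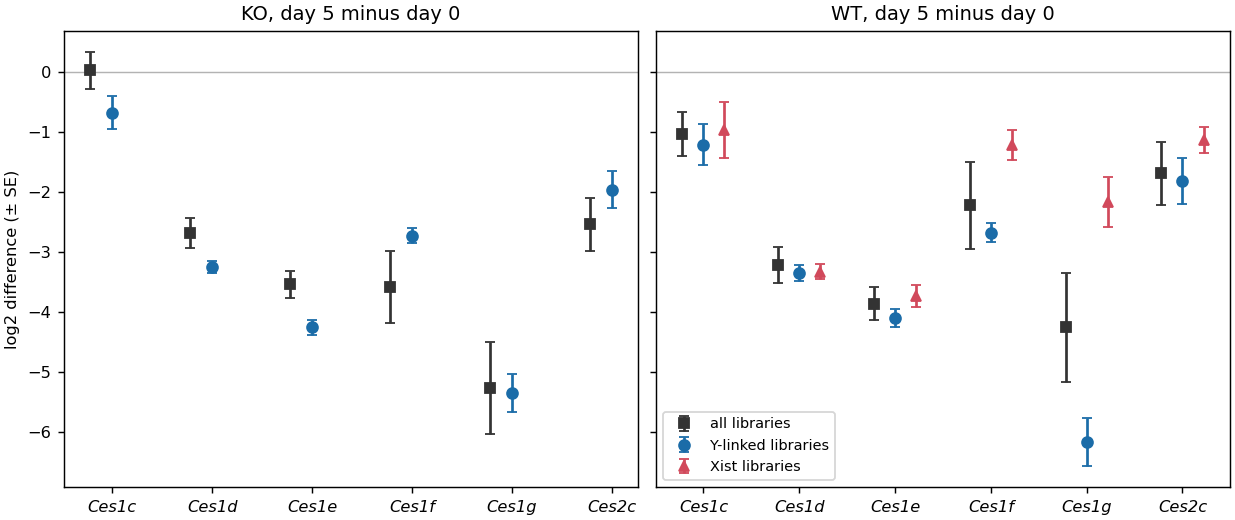
Log2 difference between day 5 and day 0 (± SE) for each gene in KO kidneys (left) and WT kidneys (right), over all libraries (squares), Y-linked libraries only (circles) and Xist libraries only (triangles, WT only). In WT kidneys the Y-linked and Xist values of Ces1d differ little (-3.34 and -3.33) and those of Ces1g differ most (-6.17 and -2.16).

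The single WT libraries at day 0 decided several of these values. Without the Y-linked one (replicate 1) the WT difference became -0.70 for Ces1f, -1.92 for Ces1g and -0.74 for Ces2c. Without the Xist one (replicate 2) it became -3.75 for Ces1f, -6.61 for Ces1g and -2.64 for Ces2c. Ces1d (-3.62 and -2.81) and Ces1e (-3.87 and -3.85) moved less.

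The Y-linked and Xist libraries of the same group were then compared in 1 fit with group as a term. The rule does not use this comparison, which called 7.94% of tested genes, 3.53% higher and 4.41% lower in Y-linked libraries. Of the 6 carboxylesterases 2 were called higher and 2 lower. Ces1f was higher in Y-linked libraries by 1.88 ± 0.24 on the log2 scale (limma adjusted p = 0.000352), and Ces2c by 1.28 ± 0.21 (limma adjusted p = 0.00259). Ces1d was lower in Y-linked libraries by a log2 difference of -0.82 ± 0.07 (limma adjusted p = 1.65e-05). The direction held in every group with both patterns: in KO kidneys at day 5 Ces1d had 35.1 scaled CPM in the Y-linked library, against 60.4 and 68.1 in the Xist libraries. In WT kidneys it had 24.5 in the Y-linked library, against 40.9 and 44.9 in the Xist libraries at day 5, and 253 against 441 at day 0.

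These 3 calls held in all 18 alternatives, with adjusted p between 6.51e-06 and 0.000354 for Ces1d, 8.08e-05 and 0.0027 for Ces1f and 0.00159 and 0.0189 for Ces2c. Ces1e, at -0.54 ± 0.15 (limma adjusted p = 0.0464), was called in only 5 of 18, and without KO replicate 2 at day 5 its difference was -0.22 (adjusted p = 0.452). Ces1g (1.41 ± 0.61, limma adjusted p = 0.174) and Ces1c (-0.49 ± 0.27, limma adjusted p = 0.282) did not pass over both days together; on recovered reads with edgeR, Ces1g did, at 3.04 (adjusted p = 0.0294). Of the rest of the family, Ces2h, the only called gene of the 6 tested, was higher in Y-linked libraries by 1.39 ± 0.21 (limma adjusted p = 0.00165). Proximal tubule markers moved with this pattern as well: 7 of the 10 were lower and 1 higher in Y-linked libraries, and their sums at day 5 were 3343 scaled CPM in the Y-linked KO library, against 4754 and 5428 in the Xist ones, and 2884 in the Y-linked WT library, against 3229 and 3720. Their part in the differences of Ces1d and Ces1e was not tested.

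The pattern difference was also set against day. At day 0 it is the difference of 1 Y-linked and 1 Xist WT library, so its spread is taken from the other groups and the term cannot tell the pattern from any other difference between those 2 kidneys. This pattern by day term called 0.453% of tested genes, 0.249% lower and 0.204% higher, with negative values meaning a smaller excess in Y-linked libraries at day 5. For Ces1g the excess was 0.19 ± 0.29 (SE, log2) at day 5 and 4.69 ± 0.47 at day 0, a difference of -4.50 ± 0.55 (limma adjusted p = 0.00251). For Ces1f it was 1.44 ± 0.15 at day 5 and 3.06 ± 0.25 at day 0, a difference of -1.61 ± 0.29 (limma adjusted p = 0.0272). At day 5 the Ces1g levels of Y-linked and Xist libraries overlapped, whereas Ces1f had 134 scaled CPM in the Y-linked KO library and 113 in the Y-linked WT library, against 30.3 to 64.8 in the 4 Xist libraries.

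At 0.189 to 1.15 scaled CPM a difference in Ces1g at day 5 is hard to see. The call for Ces1g held in 16 of 16 alternatives and that for Ces1f in 13 of 16; it was lost without a filter on low values (adjusted p = 0.155), without KO replicate 2 at day 5 (0.150) and without KO replicate 3 at day 0 (0.0543). For Ces2c the excess was 1.05 ± 0.21 at day 5 and 1.91 ± 0.35 at day 0 and for Ces1d -0.83 ± 0.08 at day 5 and -0.80 ± 0.14 at day 0, and neither change passed (limma adjusted p = 0.513 for Ces2c and 0.987 for Ces1d). Ces1e (-0.74 ± 0.15 at day 5, -0.01 ± 0.24 at day 0) and Ces1c (-0.70 ± 0.30 at day 5, 0.06 ± 0.49 at day 0) did not pass either, except Ces1e without WT replicate 3 at day 5 (-1.10, adjusted p = 0.0445). Of the 6 tested adipocyte markers 3 moved with the same term in the other direction (Retn, Adipoq and Cidec, by 5.77, 6.45 and 6.56), and the list summed to 228 and 217 scaled CPM in the Y-linked libraries at day 5, 88.5 to 218 in the Xist libraries at day 5, and 83.6 in the Y-linked and 162 in the Xist WT library at day 0. Their part in the Ces1f and Ces1g results was not tested.

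**Figure D4:**
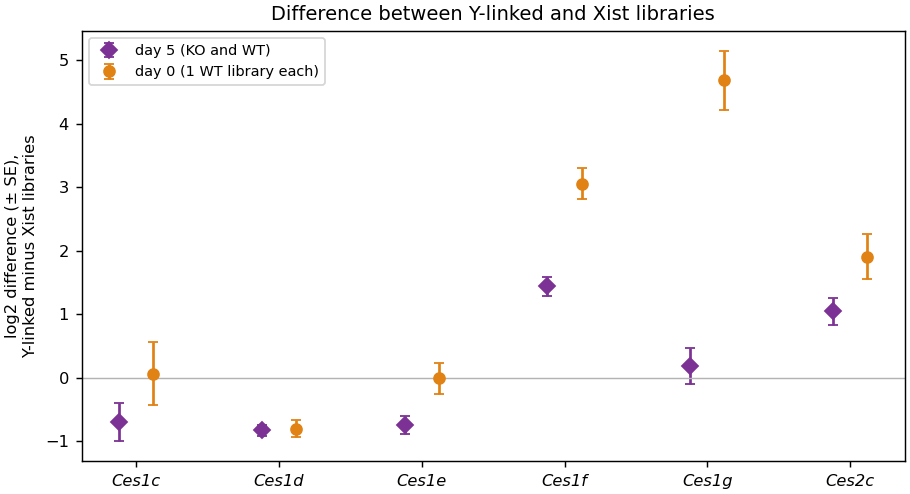
Log2 difference of Y-linked minus Xist libraries of the same group (± SE) at day 5 (diamonds, KO and WT kidneys together) and at day 0 (circles, 1 WT library of each pattern) for each gene. Ces1g stands at 0.19 at day 5 and 4.69 at day 0, Ces1f at 1.44 and 3.06, and Ces1d at -0.83 and -0.80.

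Genotype gave no call among the 6 genes. At day 5 KO kidneys were higher than WT kidneys by 0.33 (Ces1c) to 0.65 (Ces1e) on the log2 scale, with limma adjusted p of 0.845 or more, and all 6 genes overlapped between the genotypes. Among libraries of like pattern, Ces1d, Ces1e, Ces1f and Ces2c were higher in each KO library than in any WT library. Ces1c and Ces1g were lower in the Y-linked KO library than in the Y-linked WT library. The share of all tested genes that separate in this way was not counted, so no genotype difference is read from it. No difference passed in Xist libraries (limma adjusted p of 0.180 or more). In Y-linked libraries (1 against 1) the log2 differences lay between -0.22 (Ces1c) and 0.52 (Ces1d). Over all genes the day 5 comparison called 0 genes (0%) with limma and 0 with edgeR, against 1025 and 1030 at an unadjusted p under 0.05. For Ces1d the mean was 54.5 ± 17.3 scaled CPM in KO kidneys and 36.8 ± 10.8 in WT kidneys (SD, n = 3 each; log2 0.55 ± 0.27, limma adjusted p = 0.905). With the sex-chromosome pattern as a covariate that difference was still 0.55 and passed (adjusted p = 0.0482), and without KO replicate 2, Ces1e passed at 1.02 (adjusted p = 0.0353).

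At day 0, 0.0166% of tested genes were called (3 genes, all lower in KO kidneys) and none of the 6. For 3 of the 6 the genotypes did not overlap: Ces1e and Ces1f were higher, and Ces1c was lower, in every KO library. WT kidneys had only 2 libraries there, all 4 KO libraries were Y-linked, and Ces1c rests on 3 to 7 reads against 14 and 15. The share of all tested genes without overlap was not counted, so no genotype difference is read from these 3 genes. Ces1f was higher in KO kidneys by 1.85 ± 0.69 (limma adjusted p = 0.242), Ces1g by 1.41 ± 0.86 (0.461) and Ces2c by 1.26 ± 0.50 (0.263), while Ces1d differed by 0.03 ± 0.28, Ces1e by 0.32 ± 0.26 and Ces1c by -0.74 ± 0.35 (limma adjusted p of 0.341 or more). These values turned on which WT library was used. Against the Y-linked WT library alone, Ces1f differed by 0.31, Ces1g by -0.94 and Ces2c by 0.30, with adjusted p of 0.538 or more. Without that library, with a single WT library left and its spread assumed to be like that of the other groups, Ces1f differed by 3.38 (adjusted p = 0.0106), Ces1g by 3.76 (0.000872) and Ces2c by 2.22 (0.0334). Genotype and pattern cannot be told apart there.

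The interaction of genotype and obstruction was called for 1 gene, 0.00553% of those tested, and for none of the 6 genes, whose log2 values lay between -1.36 ± 0.94 (Ces1f) and 1.07 ± 0.48 (Ces1c), with limma adjusted p of 0.651 or more. Ces1g passed without WT replicate 1 at day 0 (-3.37, adjusted p = 0.0109), which again leaves 1 WT library there. The 2 obstruction comparisons share no libraries.

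Of the 14 other family genes, 6 were tested and 8 had too few reads, no more than 11 in any library. The tested ones are hydrolases of the same kind. Ces2h fell most in KO kidneys, with a log2 difference of -2.89 ± 0.46 (limma adjusted p = 0.000181), and also fell in WT kidneys (-1.77 ± 0.55; limma adjusted p = 0.0186). Like Ces1f, it stood high in Y-linked libraries: 0.573, 1.23 and 0.232 scaled CPM in KO kidneys at day 5, against 7.42, 8.12, 9.07 and 6.49 at day 0, and 0.0945, 0.0504 and 0.920 in WT kidneys at day 5, against 4.90 and 0.786 at day 0. Ces2b fell (-1.64 in KO kidneys, -1.90 in WT kidneys), as did Ces2e (-0.86 and -1.10) and Ces2g (-0.75 and -0.99). Ces3a fell in WT kidneys (-1.20, limma adjusted p = 0.0259) and stood at -0.66 in KO kidneys (limma adjusted p = 0.115). Ces2f, at -0.19 in KO kidneys and 0.39 in WT kidneys, passed in neither. In all 4 of the 6 tested fell in KO kidneys and 5 in WT kidneys, with medians of -0.80 and -1.15, against 0.07 and 0.04 for all tested genes.

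Among 14 other hydrolases of esters, epoxides and glucuronides, 7 fell and 3 rose in KO kidneys, and 6 fell and 2 rose in WT kidneys (medians -0.40 and -0.19). Cmbl, a cytosolic hydrolase that activates ester prodrugs, fell, with log2 differences of -2.38 ± 0.09 in KO kidneys and -2.42 ± 0.11 in WT kidneys (limma adjusted p = 1.2e-08 and 6.05e-08). Its libraries held 49.5 to 60.4 scaled CPM in KO kidneys at day 5, against 260 to 304 at day 0, and 37.4 to 42.7 in WT kidneys at day 5, against 198 to 230 at day 0. Bphl, a valacyclovir hydrolase, fell, with log2 differences of -1.68 in KO kidneys and -1.89 in WT kidneys. Lypla1, an acyl protein thioesterase, fell too (-1.78 in KO kidneys, -1.30 in WT kidneys), as did Esd, the S-formylglutathione hydrolase (-0.85 and -0.94). Gusb, the beta-glucuronidase that binds Ces1e, was called lower in neither genotype. It stood at 0.10 ± 0.18 in KO kidneys (limma adjusted p = 0.678) and rose by 0.61 ± 0.22 in WT kidneys (limma adjusted p = 0.0376). The WT libraries held 49.08 to 58.76 scaled CPM of Gusb at day 5, against 47.45 in the Y-linked and 26.71 in the Xist library at day 0.

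Genes of neutral lipid storage and hydrolysis mostly fell too, 9 of 17 in KO kidneys and 11 of 17 in WT kidneys, with 2 rising in each (medians -0.68 and -0.74). Dgat2, which makes triacylglycerol, fell, with log2 differences of -1.59 ± 0.11 in KO kidneys and -1.80 ± 0.13 in WT kidneys (limma adjusted p = 1.68e-07 and 4.83e-07). The lysosomal lipase Lipa fell, with log2 differences of -0.68 in KO kidneys and -1.18 in WT kidneys. Apob, the lipoprotein scaffold, fell as well (-1.25 and -1.03), as did the fatty acid amide hydrolase Faah (-0.89 and -0.68).

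Of 15 tested transcription factors and hormone receptors, 10 fell and 1 rose in KO kidneys, and 9 fell and 0 rose in WT kidneys (medians -0.71 and -0.77). Hnf4a, a nuclear receptor of hepatocytes and proximal tubule, fell, with log2 differences of -1.07 ± 0.10 in KO kidneys and -1.55 ± 0.13 in WT kidneys (limma adjusted p = 2.89e-06 and 9.65e-07). Falls of -1.31 in KO kidneys and -1.32 in WT kidneys were found for the growth hormone receptor Ghr, and of -0.73 and -0.66 for Rxra, the partner of many nuclear receptors. The prolactin receptor Prlr did not pass between days but was lower in Y-linked libraries by a log2 difference of -3.85 ± 0.42 (limma adjusted p = 0.000113), with 4.44 scaled CPM in the Y-linked library and 121 and 144 in the Xist libraries of KO kidneys at day 5.

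**Figure D5:**
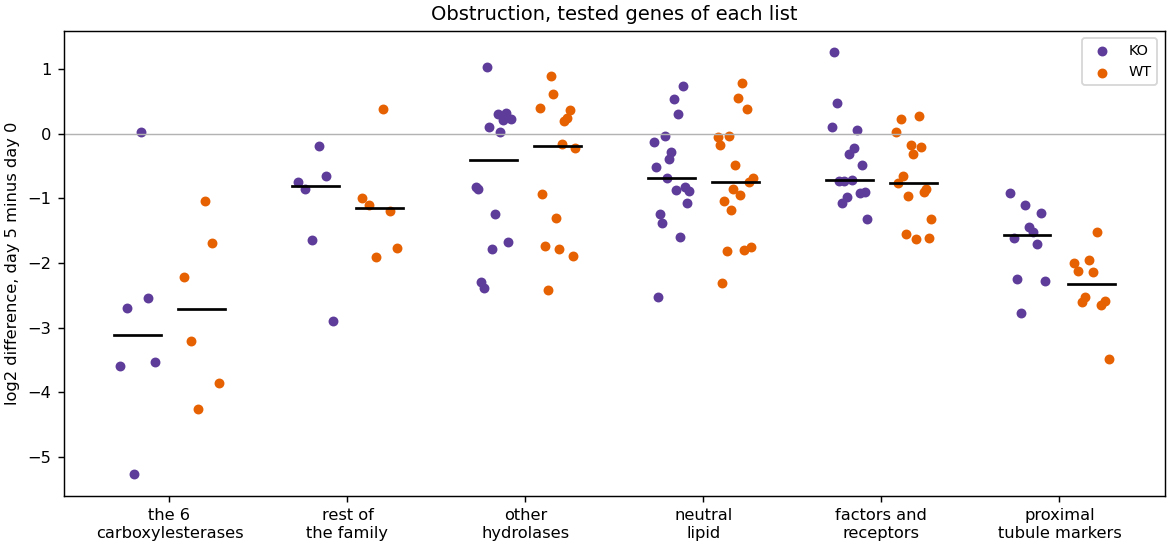
Log2 difference between day 5 and day 0 for the tested genes of 6 lists in KO kidneys (left column of each pair) and WT kidneys (right column); points are genes and bars their median. Medians are -3.11 in KO kidneys and -2.72 in WT kidneys for the 6 carboxylesterases, which were chosen for their fall, -0.80 and -1.15 for the rest of the family, and -1.56 and -2.33 for the proximal tubule markers.

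Markers of the proximal tubule, where kidney carboxylesterases are chiefly made, fell as well: 9 of 10 in KO kidneys and 10 of 10 in WT kidneys (medians -1.56 and -2.33). All 10 were detected in every group, with sums of 3343 to 5428 scaled CPM in KO kidneys at day 5, 14920 to 16720 in KO kidneys at day 0, 2884 to 3720 in WT kidneys at day 5 and 14060 to 14970 in WT kidneys at day 0. Set against the mean of these markers, Ces1g still differed by -3.59 in KO kidneys and -1.90 in WT kidneys, Ces1e by -1.85 and -1.50, and Ces1d by -1.01 and -0.86. Ces1c, at its few reads, went the other way, by 1.71 in KO kidneys and 1.31 in WT kidneys. Ces1f differed by -1.90 in KO kidneys and 0.13 in WT kidneys, and Ces2c by -0.86 and 0.66. The WT values of Ces1f, Ces1g and Ces2c rest on the 2 unlike libraries at day 0 given above. Without WT replicate 1 at day 0, Ces1g itself differed by -1.92, while the marker mean itself differed by -2.35 over all WT libraries. The KO values mix day with pattern, as 4 Y-linked libraries at day 0 are set against 1 Y-linked and 2 Xist libraries at day 5. Not set against the markers, the KO difference with the pattern as covariate was -2.33 for Ces1f and -1.68 for Ces2c. Without the covariate it was -3.58 and -2.54. Leukocyte markers went the other way, with sums of 583 to 770 in KO kidneys at day 5 against 138 to 168 at day 0, and 533 to 613 in WT kidneys at day 5 against 137 to 138 at day 0. Fibroblast and myofibroblast markers summed to 2593 to 3927 in KO kidneys at day 5, against 397 to 617 at day 0, and to 2777 to 4452 in WT kidneys at day 5, against 465 to 580 at day 0. The 6 adrenal cortex markers summed to 6.06 to 9.69 over the 12 libraries, with Cyp11b2 at 0 reads in all of them. The part of cell make-up in the falls was not tested.

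The genes were also compared by how they varied over the 12 libraries, which share the same groups and patterns. The fall for which they were chosen enters each correlation, so high values among them are in part fixed by that choice. Pearson's r of log2 values was 0.990 between Ces1d and Ces1e and 0.990 between Ces1f and Ces2c, against 0.749 between Ces1d and Ces1f, which lie in the same row with Ces1e between them. Ces1g followed Ces1f at 0.953, Ces2c at 0.93 and Ces1e at 0.91, and Ces1c went with none of the others (0.07 with Ces1f to 0.49 with Ces1d). Outside the family, the genes most like Ces1d were Dnase1 (0.996), Smim24 (0.995) and Kmo (0.995), and those most like Ces1e were Upb1 (0.999), Aldh8a1 (0.998) and Gpd1 (0.998). Ces1f was most like Ugt2b38 (0.997), Slc22a28 (0.995) and C1qtnf3 (0.995). Ugt2b38, a glucuronosyltransferase, shared its range, with 64.3 to 154 scaled CPM in KO kidneys at day 5, against 991 to 1402 at day 0, and 34.6 to 111 in WT kidneys at day 5, against 76.8 to 934 at day 0. Ces2c was most like Bcap31 (0.992), Wdr55 (0.989) and Cd36 (0.989), of which Cd36 takes up fatty acids. Ces1g was most like Mtrex (0.991), Vps8 (0.987) and Dhx29 (0.987), broadly used genes with a far smaller range, and Ces1c was most like Mertk (0.896), Alb (0.894) and Tet2 (0.879).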

How the data were processed

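RNA-seq of 12 left kidneys was used. The submitters' processing notes name STAR, SAMtools, HTSeq and the genome GRCm38.p6, and the design text says that STAR and HTSeq were used in house; versions, strand setting and the treatment of shared reads are not given in the sources used here. The deposited values are CPM (each column sums to 1000000), from which whole reads were recovered (100% of 665652 values within 0.001 of a whole number), 16567256 to 19398882 per library. All columns were used.

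Scaled CPM is CPM over the TMM factor (edgeR 4.0.16). Log2(scaled CPM + 0.5) was fitted with limma 3.58.1 (R 4.3.3, trend) over 18093 genes kept by filterByExpr (minimum count 10, total 15), all 12 libraries in 4 groups, with Benjamini-Hochberg adjustment at 0.05. Further fits added the sex-chromosome pattern, and its product with day. Errors are SE of the fit or SD of libraries. The code was tested on simulated data, and no pair of replicates agreed within counting noise (chi-square per degree of freedom 6.65 to 62.2).

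The 6 genes and all lists were chosen with earlier results of these data known. Every tested family gene could be named; of each other list, up to 4 genes with the smallest adjusted p for obstruction, plus Gusb, Hnf4a and Prlr (1 gene is not reported here); by likeness, the 3 genes with the highest r among those with a mean log2 of at least 1. Alb, Fgb, Fgg, Ttr, the adipocyte genes and Sprr2f were named after their values were seen. Alternatives were edgeR on recovered reads, 0.1 or 1 CPM added, no filter, RLE factors, library size only, only the compared groups, the pattern as covariate, only Y-linked or only Xist libraries, and each library left out; for the pattern by day term they were chosen after seeing the data. Figures used matplotlib 3.10.9.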

Additional observations from a re-analysis of the deposited data

Results flagged for a closer look

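The pattern by day term called 82 of 18093 tested genes (0.453%, limma), among them 2 of the 6 carboxylesterases. Its day 0 side is 1 Y-linked against 1 Xist WT library, with the spread taken from the other groups, so that a difference between those 2 kidneys cannot be told apart from one of pattern. For Ces1g the Y-linked minus Xist difference was 0.19 at day 5 and 4.69 at day 0, a change of -4.50 on the log2 scale (adjusted p = 0.00251); the day 5 side holds only 4 to 26 reads per library. For Ces1f it was 1.44 at day 5 and 3.06 at day 0, a change of -1.61 (adjusted p = 0.0272), with the Y-linked library higher in KO and WT kidneys at day 5 and in WT kidneys at day 0.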

How the results depend on the processing

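No paired analysis was possible because the labels give no replicate numbers shared between groups. The total obstruction counts moved by less than 1.5 times in every alternative, but library size alone cut the lower calls to 2179 in KO kidneys and 2001 in WT kidneys, against 4589 and 4087, and raised the higher calls to 10114 and 8560, against 5328 and 4440. For genotype at day 0, where 3 genes were called, 8 were called with 0.1 CPM added, 9 without a filter, 6 with RLE factors, 15 with library size only and 19 with the pattern as covariate, and 1 to 645 with a library left out (645 without WT replicate 1 at day 0; 42 and 20 without KO replicates 2 and 3 at day 5; 5 without KO replicate 4 at day 0; 1 without KO replicate 1 at either day). For genotype at day 5 (0 called), 2 were called with 1 CPM added, 3 with the covariate, and 0 to 26 with a library left out (26 without KO replicate 2 at day 5). For the interaction (1 called), 0 were called without a filter, 0 with library size only, 3 with the covariate, and 0 to 99 with a library left out (99 without WT replicate 1 at day 0). The pattern called 906 genes without a filter and 453 to 1496 with a library left out (453 without KO replicate 2 and 863 without WT replicate 3, both at day 5), in place of 1436, and the pattern by day term 159 without a filter and 36 to 182 with a library left out (36 without KO replicate 2, 130 without WT replicate 2 and 182 without WT replicate 3, all at day 5), in place of 82. Ces1c in KO kidneys (0.03 between days) changed sign to -0.20 with 0.1 CPM added, -0.30 with the covariate and -0.68 in Y-linked libraries, and lay between -0.17 and 0.40 with a library left out. No Xist-only value could be had for KO kidneys between days or for genotype at day 0, since no KO library at day 0 carried Xist. The causes were not tested. Depth limits Ces1c and, at day 5, Ces1g, where 3 reads are 0.132 to 0.228 scaled CPM; with 2 to 4 libraries per group, and 1 of each pattern at day 0, a difference that missed the threshold is not shown to be absent.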
